A study of Mus musculus with 6 samples.

Results

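The 10 genes described here, of 21606 in the count table, act in G-protein signalling and in the retention of cells in the marrow. They are Rgs1, Rgs2, Rgs10, Rgs18, Rgs19, Cd69, Cxcr4, S1pr1, Gnai2 and Gnai3, taken by symbol, and each was found in the table. They were chosen with the difference between males and females in view, so that difference is given for them as a description and supports nothing. RNA came from marrow cells bright for aldehyde dehydrogenase activity (ALDHbr), a sort that takes a progenitor-rich fraction of marrow. The cells were from WT C57BL/6 mice, with 3 libraries from males and 3 from females. The age of the mice, the number pooled per library and the gate used for the sort are not given in the sources used here, and the labels do not say that replicates came from separate animals, so any p-value measures only the spread between these libraries. Libraries were made by BRB-seq, a bulk method that counts the 3' ends of transcripts under a barcode for each sample.

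Chemokine receptors such as CXCR4 act through heterotrimeric G proteins of the Gi class. The ligand-bound receptor loads the alpha subunit with GTP, and the freed subunits drive cell migration and adhesion. RGS proteins speed the hydrolysis of that GTP and so end the signal. CXCR4 answers to CXCL12 made by marrow stroma and holds progenitors in the marrow, S1PR1 answers to sphingosine 1-phosphate (S1P) and draws cells out into blood, and CD69 binds S1PR1 and takes it off the cell surface.

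Totals ran from 679724 to 880074 counts in the male libraries and from 1199551 to 1475224 in the female ones, so the female libraries were 1.65 times as deep on average. Levels are given as normalised CPM (counts per 1e+06, with library totals scaled by TMM), and since each transcript is tagged at its end they are not divided by length and are not ranked between genes. The myeloid genes Mpo, Elane and Prtn3 and the progenitor genes Cd34, Kit and Flt3 were counted in every library, while no T cell gene of the marker list (Cd3d, Cd3g, Trbc1, Trbc2, Cd4) had more than 6 counts in all. Xist and Ddx3y matched the labelled sex in all 6 libraries. Male replicates 1 to 3 had mean correlations of log2 CPM of 0.956, 0.952 and 0.96 with the other males. With the female libraries they had 0.965, 0.945 and 0.961. Female replicates 1 to 3 had 0.976, 0.977 and 0.974 with the other females, and 0.957, 0.959 and 0.955 with the males.

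Rgs1 and Cd69 had higher levels in males, by 4.59-fold and 1.89-fold in the fit over all tested genes. Rgs18 and Rgs2 lay on the same side with smaller differences, of 1.42-fold and 1.32-fold. Cxcr4 lay on the other side, at 0.791 times the female level. Rgs10, Rgs19, Gnai2 and Gnai3 differed by less than the standard error of their own fold changes, and S1pr1 had too few counts to be fitted. Of the 9 genes fitted, 2 passed an adjusted p of 0.05 (quasi-likelihood fit in edgeR over 8460 genes, adjusted by Benjamini and Hochberg), Rgs1 and Cd69, both higher in males. Over all tested genes 0.579% passed in either direction and 0.426% were higher in males. Nothing is read from this count, because the genes were chosen on the same comparison. The libraries did not overlap between the sexes for Rgs1, Rgs18 and Cd69, with males above, and for Cxcr4, with males below. Over all tested genes 15.6% had libraries that did not overlap, 7.57% with males above and 8.03% with males below.

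**Figure D1:**
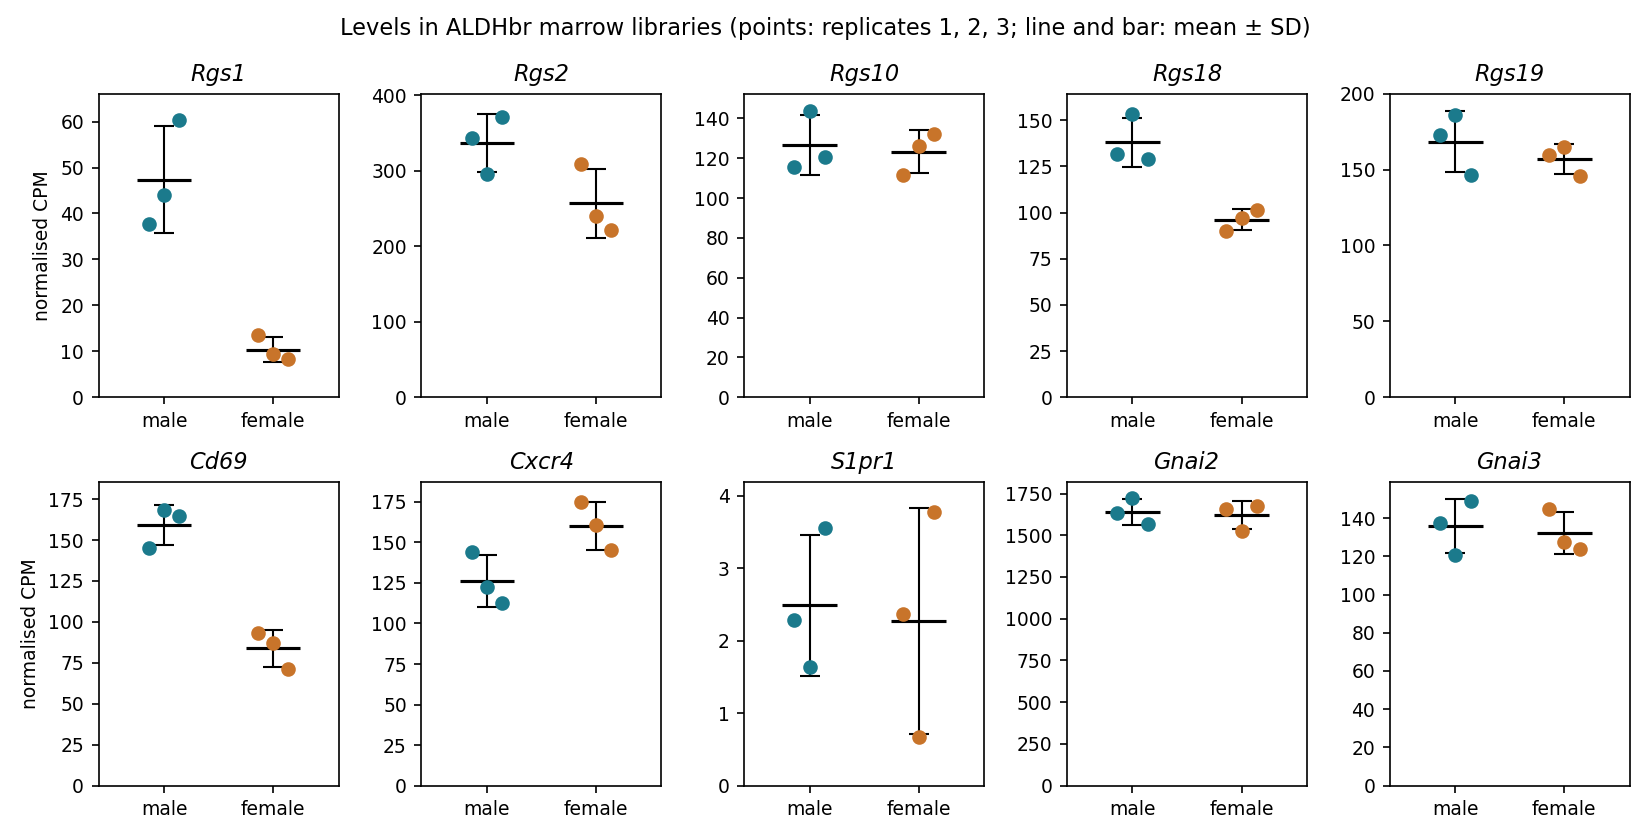
Normalised CPM of the 10 genes in the male (left, blue) and female (right, orange) libraries, 1 panel per gene, with each axis from 0. Points are libraries in the order of their replicate numbers, and the line with its bar is the mean ± SD (n = 3). The male and female points are apart for Rgs1, Rgs18, Cd69 and Cxcr4 and overlap in the other panels.

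Among the receptors, Cxcr4 had 144, 122 and 112 CPM in male replicates 1 to 3 and 175, 161 and 145 CPM in female replicates 1 to 3. The highest male library, replicate 1, lay just under the lowest female one, replicate 3. Means were 126 ± 16.2 CPM in males and 160.2 ± 14.8 CPM in females (SD, n = 3 each), a log2 fold change of -0.34 ± 0.13 (SE). Its 95% interval was -0.61 to -0.06, and Cxcr4 was not among the genes that passed after adjustment. The gene lies on chromosome 1 (128588199 to 128592293, minus strand, GRCm38).

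S1pr1 (chromosome 3, 115710433 to 115715072, minus strand) had 2, 1 and 3 counts in the male libraries and 3, 1 and 5 in the female ones. The sums, 6 in males and 9 in females, gave a ratio of 1.17 male over female with an exact 95% counting interval of 0.343 to 3.68. At this depth no difference of S1pr1 smaller than those bounds could be seen. Counting intervals throughout cover counting error only.

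The alpha subunits of Gi, which carry the signal of CXCR4 and S1PR1 into the cell, had much the same levels in both sexes. Gnai2 (chromosome 9, 107614125 to 107635367, minus strand) had 1634, 1722.5 and 1565 CPM in the male libraries and 1659.5, 1527 and 1677 CPM in the female ones. The male and female values interleave, and the log2 fold change was 0.02 ± 0.12 with a 95% interval of -0.24 to 0.27. Gnai3 (chromosome 3, 108107280 to 108146146, minus strand) had 137, 121 and 149 CPM in the male libraries and 145, 128 and 124 CPM in the female ones. The lowest and the highest of its 6 values were both male, and the log2 fold change was 0.05 ± 0.13, with an interval of -0.22 to 0.32. The sign of both fold changes flipped when libraries were scaled by total counts alone. The third Gi subunit, Gnai1, had 0 counts in males, against 4 counts in females.

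Gnai2 and Gnai3 encode close relatives, so the ends of their coding sequences are shown side by side. The 60 bases that close each coding sequence, stop codon included, read as follows from 5' to 3', with capitals at the bases that differ between the pair. They encode the tail that fits into the receptor.
Gnai2, chr9:107615635-107615694, minus strand, GRCm38: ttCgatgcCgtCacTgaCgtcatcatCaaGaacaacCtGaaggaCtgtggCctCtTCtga
Gnai3, chr3:108109422-108109481, minus strand, GRCm38: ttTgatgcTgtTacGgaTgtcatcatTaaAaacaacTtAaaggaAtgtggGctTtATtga
The pair share 46 of 60 bases (76.7%) and differ at 14. Both stretches lie upstream of the annotated 3' ends of the genes, at 107614125 and 108107280. BRB-seq counts transcript ends, so this identity does not say how well the counted reads tell the pair apart. No stretch of 81 bases, the insert read length, in the last 500 bases of any coding transcript of the 10 genes was found in a transcript of another gene of GENCODE M21. The share of Gnai3 in the summed counts of Gnai2 and Gnai3 was 7.67% ± 1.07 in males and 7.54% ± 0.589 in females (SD, n = 3 each).

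The RGS genes encode brakes on G alpha subunits, though not all act mainly on the Gi class. The table held 19 Rgs genes, and counts sufficed to test 7, the 5 described here together with Rgs12 and Rgs14. The other 12 had at most 5 counts each over all 6 libraries. The 5 genes held 97.4% ± 0.615 of all Rgs counts in males and 95.8% ± 0.805 in females (SD, n = 3 each).

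Rgs1 encodes a small RGS protein of lymphocytes and other blood cells that dampens chemokine signalling. It had 33, 27 and 51 counts in the male libraries and 17, 14 and 11 in the female ones, although the female libraries were deeper. As normalised CPM these were 37.7, 44.1 and 60.3 in males and 13.4, 9.31 and 8.31 in females. Every male library lay above every female one, and the lowest male value was over the highest female value by more than the whole female range. The log2 fold change was 2.198 ± 0.27, with a 95% interval of 1.64 to 2.75. Only 0.0473% of tested genes had a higher log2 fold change, namely the Y-linked Ddx3y, Eif2s3y and Uty, and Cxcl2. Of all Rgs counts within a library, which no scaling can move, Rgs1 took 4.56%, 5.22% and 7.13% in the male libraries and 1.90%, 1.40% and 1.29% in the female ones. The exact 95% binomial intervals of these shares began at 3.16% in the lowest male library and ended at 3.02% in the highest female one. These bounds cover counting error only, and they describe a gene chosen on this comparison.

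Rgs2, which acts mainly on the Gq class in other systems and is induced early after stimulation, had 343, 296 and 371 CPM in the male libraries and 308, 240.1 and 222 CPM in the female ones. The groups overlap, since male replicate 2 lay under female replicate 1. The log2 fold change was 0.40 ± 0.14 (95% interval 0.11 to 0.68), and Rgs2 did not pass. Rgs18, an RGS gene known from megakaryocytes and platelets, had 131, 153 and 129 CPM in the male libraries and 90.1, 97.1 and 101 CPM in the female ones. All male values lay above all female values, with a log2 fold change of 0.51 ± 0.13 (95% interval 0.24 to 0.78), and Rgs18 passed after adjustment only without male replicate 1.

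Markers of megakaryocytes and platelets moved with Rgs18. The 9 listed genes summed to 48.0, 121 and 118 CPM in the male libraries and 36.4, 32.6 and 33.3 CPM in the female ones. Of the 9, Pf4 was the one tested and it was higher in males, while Gp1bb had 1 count in males and 0 in females. Their part in the Rgs18 difference was not tested, and in bulk RNA more cells of a type and more RNA per cell cannot be told apart.

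Rgs10, a short RGS protein made of little more than the RGS domain, had 115, 144 and 121 CPM in the male libraries and 111, 126 and 132 CPM in the female ones. Its values interleave, with a log2 fold change of 0.02 ± 0.13 (95% interval -0.25 to 0.30). Rgs19, which binds Gi subunits and is also called GAIP, had 173, 186 and 147 CPM in the male libraries and 159.7, 165 and 146 CPM in the female ones. Its log2 fold change was 0.09 ± 0.13 (95% interval -0.16 to 0.35). These intervals leave room for differences of up to about the size seen for Cxcr4, so equal levels are not shown.

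Of the 5 RGS genes, 3 are neighbours. Rgs2 (143999338 to 144004161), Rgs1 (144242296 to 144249242) and Rgs18 (144752683 to 144775435) lie on the minus strand of chromosome 1 within 776.1 kb, together with Rgs13 and Rgs21. Rgs13 and Rgs21 had 1 count each over all 6 libraries, so of 5 neighbouring Rgs genes these data measured 3. The log2 fold changes of those 3 were 2.198 for Rgs1, 0.51 for Rgs18 and 0.40 for Rgs2. Rgs10 lies on chromosome 7 (128373621 to 128418758) and Rgs19 on chromosome 2 (181688419 to 181693977), both on the minus strand. The non-coding gene Gm15503, with 34 counts over all libraries, overlaps Rgs10 on the same strand, so reads of the 2 genes may be shared.

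**Figure D2:**
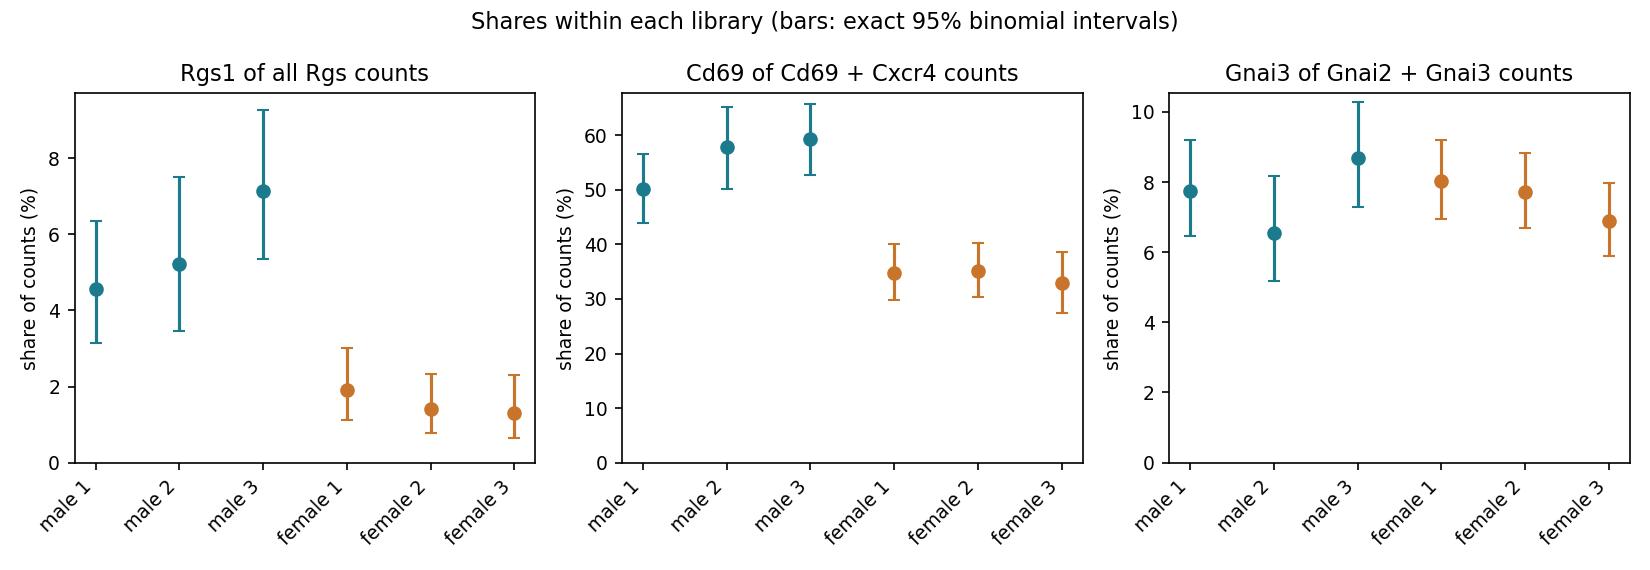
Shares of counts within each library in percent, for Rgs1 among all Rgs genes, Cd69 of Cd69 and Cxcr4, and Gnai3 of Gnai2 and Gnai3. Points are the 3 male (blue, left) and 3 female (orange, right) libraries, bars are exact 95% binomial intervals, and axes start at 0. Rgs1 took 4.56% to 7.13% in males and 1.29% to 1.90% in females, while the Gnai3 shares overlap.

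Cd69 encodes a surface lectin that appears within hours of lymphocyte activation (chromosome 6, 129267325 to 129275436, minus strand). It had 127, 103 and 139 counts in the male libraries and 118, 131 and 94 in the female ones. Normalised, these were 145, 168 and 164 CPM in males and 93.3, 87.1 and 71.0 CPM in females. All male libraries lay well above all female ones, with means of 159 ± 12.3 CPM in males and 83.8 ± 11.5 CPM in females (SD, n = 3 each). The log2 fold change was 0.92 ± 0.14, with a 95% interval of 0.64 to 1.20, and 0.567% of tested genes had a higher one. Of the counts of Cd69 and Cxcr4 together, Cd69 held 50.2%, 57.9% and 59.4% in the male libraries and 34.8%, 35.1% and 32.9% in the female ones. The interval of the lowest male share began at 43.9%, above the highest upper bound in females, 40.2%. These bounds cover counting error only. Cd69 and Cxcr4 were chosen on this comparison and lay on opposite sides, so the gap in shares adds nothing to their levels.

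Cd69, Rgs1 and Rgs2 are known to be induced early after stimulation, and the list of immediate-early and heat-shock genes was higher in males too. Its 19 genes summed to 6364, 4558 and 6186 CPM in the male libraries and 3781, 3564 and 3439 CPM in the female ones. Male replicate 2 had the lowest male sum, the highest Cd69 level (168 CPM) and the lowest male Rgs2 level (296 CPM). Its Rgs1 level (44.1 CPM) lay between those of the other male libraries. Fos and Jun weigh most in these sums. Jun did not pass, and its level in male replicate 2 (1035 CPM) lay just under the lowest female one (1041 CPM). Of 17 tested genes 12 passed, all higher in males, against 0.426% of all tested genes. The list was chosen with earlier results of these data known, so nothing is read from this count. The 12 were Fos, Junb, Egr1, Ier3, Dusp1, Atf3, Zfp36, Klf2, Nfkbia, Dnajb1 and the near-identical pair Hspa1a and Hspa1b, whose reads may be shared. Their log2 fold changes ran from 0.66 for Dnajb1 to 1.84 for Ier3.

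Markers of other cell types moved with sex as well. The erythroid list of 8 genes summed to 288, 359 and 217 CPM in the male libraries and 95.7, 93.8 and 115 CPM in the female ones. Both of its 2 tested genes, the carbonic anhydrase genes Car1 and Car2, passed and were higher in males, by 3.17-fold and 2.86-fold. The mast cell and basophil list of 6 genes summed to 145, 173 and 205 CPM in males and 90.1, 108 and 112 CPM in females. Of its 4 tested genes, Cpa3, a mast cell protease gene, passed and was 2.71-fold higher in males. In both lists every male sum lay above every female one, and no gene was at 0 counts in either sex. The B lineage list summed to 73.2, 62.0 and 62.7 CPM in males and 89.3, 97.8 and 101 CPM in females, and in it Ms4a1 was lower in males. The T and natural killer list summed to 153, 167 and 170.3 CPM in males and 131, 127 and 147 CPM in females, nearly all of it Nkg7, which did not pass. The part of these cell types, of the megakaryocyte markers and of the early genes in the Rgs1, Cd69, Rgs18 and Rgs2 differences was not tested.

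**Figure D3:**
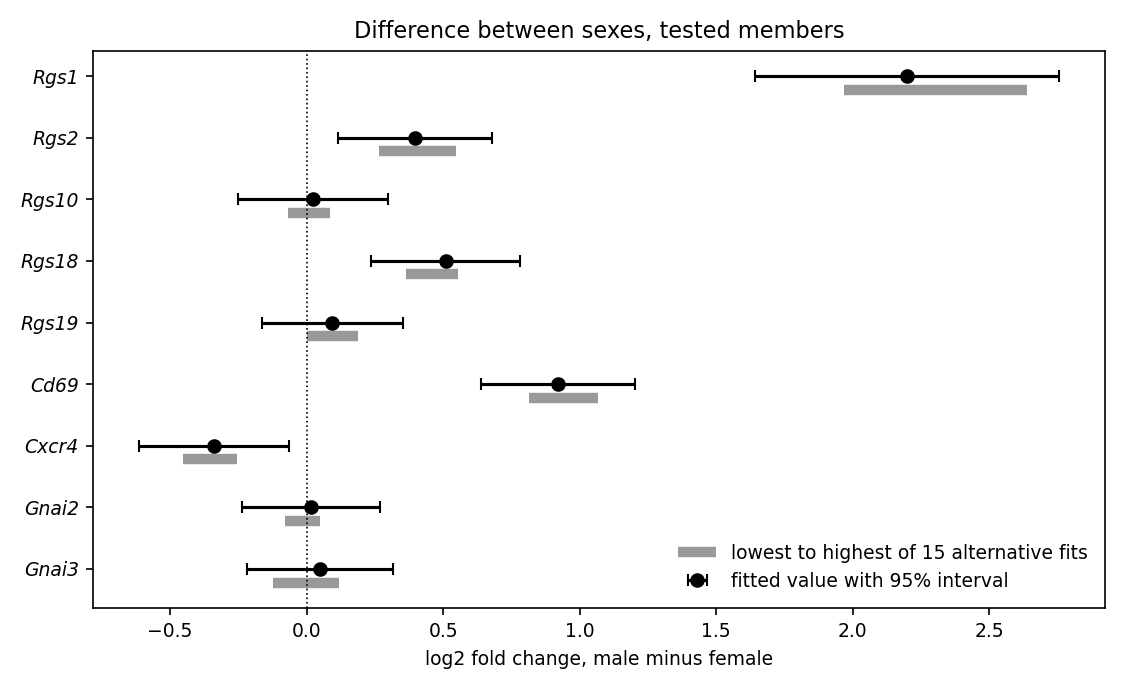
Log2 fold change, male minus female, of the 9 fitted genes. Points with bars are the fit with its 95% interval, and grey bars run from the lowest to the highest value over 15 alternative fits. Rgs1 stayed between 1.97 and 2.64 and Cd69 between 0.82 and 1.07, while the grey bars of Rgs10, Gnai2 and Gnai3 cross 0.

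The rest of the route from chemokine to movement was taken as 7 lists of 106 genes, of which 92 were in the table and 42 were tested. None of the 42 passed by edgeR's quasi-likelihood test, by DESeq2 or by limma-voom. At an unadjusted p under 0.05, edgeR counted 8 (2 higher and 6 lower in males), DESeq2 4 and limma-voom 7. Over all tested genes edgeR counted 11.3% at that level, against 19.0% of the 42. The median log2 fold change of the 42 was -0.11, with 29 below 0, and that of all tested genes was -0.003.

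Among the ligands and enzymes of S1P, Cxcl12, the ligand of CXCR4, had too few counts to be tested, with 6, 13 and 10 in males and 5, 5 and 5 in females. The ratio of the sums, 29 in males and 15 in females, was 3.39 with a 95% counting interval of 1.76 to 6.81. Cxcl12 is made by stroma, and the stromal and endothelial markers summed to 152, 278 and 149 CPM in males and 142, 122 and 136 CPM in females, a list that holds Cxcl12 itself. Sphk1, which makes S1P, had 30 counts in males and 17 in females and was not tested either. Sgpp1 and Sgpl1, which take S1P apart, had log2 fold changes of -0.39 ± 0.16 and -0.34 ± 0.17. Cxcl12 and Sphk1 were named after their values were seen.

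Of the other chemokine and S1P receptors, 5 of 25 were tested and none passed. Ccr2, the receptor of monocyte chemoattractants, had 413 ± 33.5 CPM in males and 444 ± 22.3 CPM in females (SD, n = 3 each). Cx3cr1, the fractalkine receptor, had a log2 fold change of -0.22 ± 0.15. S1pr3, named after its values were seen, had 7, 4 and 8 counts in males and 24, 27 and 31 counts in females. Normalised by depth, all its male libraries lay below all female ones, with a log2 fold change of -1.29 ± 0.33 that did not pass (edgeR quasi-likelihood, adjusted p = 0.0821).

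Of the other G alpha subunits, 6 of 14 were tested and none passed. Gna13, of the class that controls RhoA, had a log2 fold change of -0.26 ± 0.16, and Gna15, the Gq class subunit of blood cells, had 0.51 ± 0.16 (adjusted p = 0.210 by the same test). The subunits Gnb1 and Gnb2, which release with Gi, had values of -0.02 ± 0.12 and 0.17 ± 0.12, and none of 5 tested beta and gamma genes passed. Grk2 and Grk6, kinases that switch receptors off, had -0.10 ± 0.12 and -0.36 ± 0.17, with none of 5 tested genes of desensitisation passing. Among 15 effectors, Rac2, a GTPase of blood cell migration, and Rap1b, a GTPase of integrin activation, had 0.04 ± 0.12 and 0.19 ± 0.12. The other tested RGS genes, Rgs12 and Rgs14, had -0.59 ± 0.43 and 0.02 ± 0.35.

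**Figure D4:**
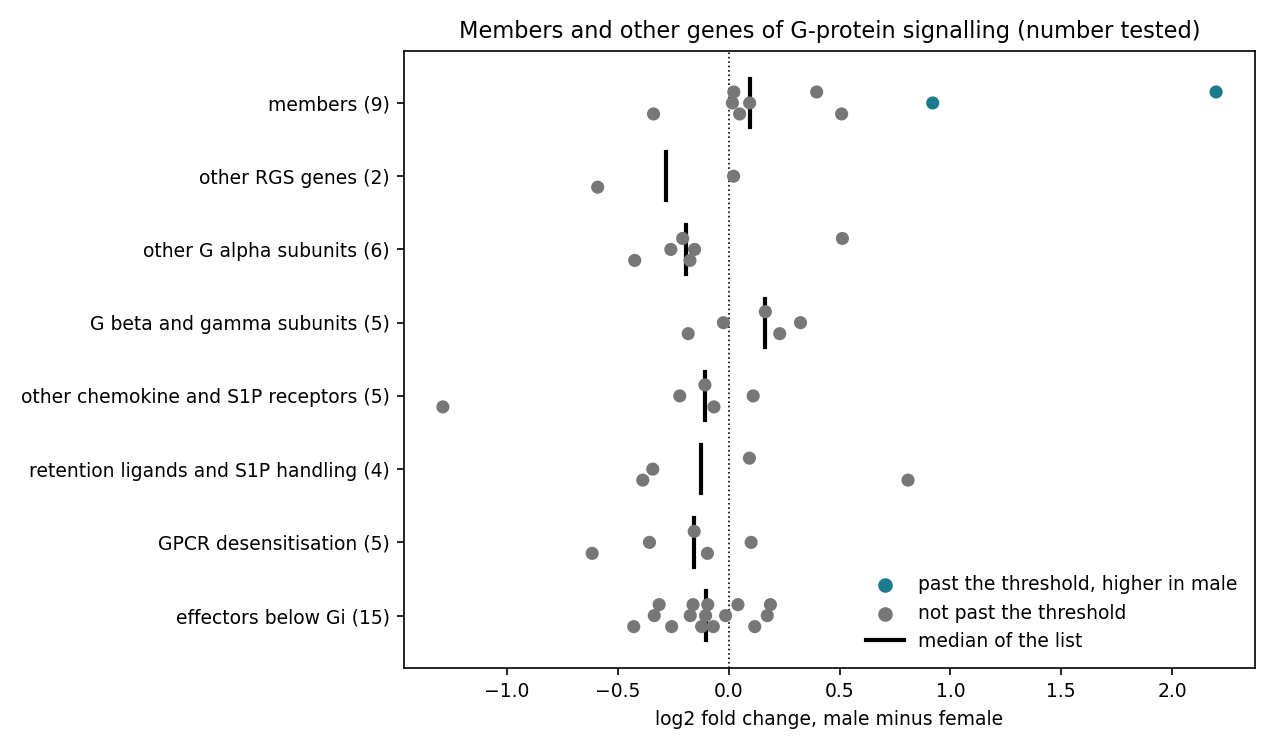
Log2 fold change, male minus female, of the 9 fitted genes (top row) and of the tested genes of 7 lists of the same signalling route, with the number tested beside each list. Points are genes, blue where they passed and grey where they did not, and vertical bars are list medians. Only Rgs1 and Cd69 are blue, and the lowest grey point is S1pr3 at -1.29.

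The genes most like 4 of the members were found by the Pearson correlation of log2 CPM over the 6 libraries, which share their sex, depth and preparation, so that high values are common. For Rgs1 they were Syf2, AB124611, Kmo, Pomt1 and the Y-linked Ddx3y (r from 0.974 to 0.979), and 35 tested genes were above 0.95. With the mean of each sex subtracted, the same 5 had r from 0.626 to 0.850. For Cd69 they were Syf2, Amd1, Emg1, Cdc26 and the chaperone gene Dnajb1 (0.984 to 0.992, and 0.777 to 0.913 with sex means subtracted). For Cxcr4 they were Mxi1, a repressor of MYC targets, Atxn1, Ypel2, Zfp839 and Polr3b (0.981 to 0.989, and 0.95 to 0.976). For Rgs18 they were the chaperone gene Hspa8, Adprhl2, Stx4a, Ahcy and Dntt (0.979 to 0.997, and 0.816 to 0.978). Syf2 stood in both the Rgs1 and the Cd69 list. These are descriptions over 6 libraries.

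Promoter sequences were at hand for 5 of the 10 genes, Cxcr4, Rgs2, Rgs10, Rgs19 and Gnai3. Those of Rgs2 and Cxcr4 are shown because both genes lie on chromosome 1 and had fold changes of opposite sign. Each runs 5' to 3' over 300 bases, from 250 before to 50 after the start of the gene (RefSeq, GRCm38.p6), with capitals at matches to the motifs searched.
Rgs2, chr1:144004100-144004399, minus strand: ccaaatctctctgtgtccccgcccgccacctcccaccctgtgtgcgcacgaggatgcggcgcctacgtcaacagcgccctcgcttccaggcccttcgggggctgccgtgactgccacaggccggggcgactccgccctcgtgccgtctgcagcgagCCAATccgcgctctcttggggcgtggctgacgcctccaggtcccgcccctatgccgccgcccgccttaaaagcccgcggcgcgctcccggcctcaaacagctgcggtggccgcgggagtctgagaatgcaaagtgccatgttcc
Cxcr4, chr1:128592250-128592549, minus strand: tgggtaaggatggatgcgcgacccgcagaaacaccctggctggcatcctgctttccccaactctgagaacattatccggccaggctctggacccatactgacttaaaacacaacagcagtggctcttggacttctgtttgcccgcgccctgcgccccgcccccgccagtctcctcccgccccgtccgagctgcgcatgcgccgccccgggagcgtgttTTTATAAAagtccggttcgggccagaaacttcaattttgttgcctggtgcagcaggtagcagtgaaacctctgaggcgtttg
The letters searched on both strands were TGANTCA for AP-1, TGACGTCA for CRE, GGGANTTTC for NF-kappa-B, CCAAT and TATAAA. Among 32851 promoters in the table, 7.81%, 1.79%, 1.11%, 37.4% and 13.6% held these in the order given. Rgs2 held 1 CCAAT match. Cxcr4 held a pair of overlapping TATAAA matches, 1 on each strand. Neither held the AP-1, CRE or NF-kappa-B letters in this window, from which nothing follows about those factors. The NF-kappa-B letters were changed after a first search had been seen, in which a longer form with more free bases also matched neither promoter but did match that of Gnai3. GC content was 70.0% for Rgs2 and 59.3% for Cxcr4, against a median of 52.7% over all promoters.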

How the data were processed

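Per the labels' protocols, RNA of 3 male and 3 female ALDHbr marrow samples went into BRB-seq libraries. The values used are raw counts per gene as deposited. The submitters' processing notes name HISAT2 2.2.1, Trim Galore 0.6.7, featureCounts 2.0.1, UMI-tools, DESeq2 and the builds GRCm38 and GRCh38. They do not say whether UMIs were collapsed or strand was used, and counts may therefore include PCR copies. The filter was filterByExpr (minimum count 10, minimum total 15), which left 8460 genes. After TMM scaling, a quasi-likelihood F test in edgeR 4.0.16 (R 4.3.3) compared male with female libraries, with no covariate, and p-values were adjusted by the method of Benjamini and Hochberg (threshold 0.05). Standard errors are log2 fold changes over the square root of F. Counting and binomial intervals are exact at 95%. The steps were tested on simulated data. Libraries of a sex differed beyond counting error (chi-square per degree of freedom 1.98 to 4.09), so none was a copy.

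Members and lists were chosen with earlier results of these data known. The text names all members, every listed gene that passed (none did), the 2 highest others of each list, the lists here being the 7 of the signalling route, and the 5 genes most like Rgs1, Cd69, Cxcr4 and Rgs18 (log2 CPM, prior count 2). Other genes, cell type and early-gene markers included, were named after their values were seen. Coordinates come from GENCODE M21, GRCm38. As alternatives, scaling was by RLE, by upper quartile or by library size. Filtering was dropped or set to 10 counts in all libraries of either sex. The test was DESeq2 1.42.0 or limma-voom (limma 3.58.1). Libraries were also thinned to the smallest total, blocked by replicate number, or left out singly. Full library totals and the filter target of DESeq2 (set to the threshold) were chosen after results with other settings had been seen.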

Additional observations from a re-analysis of the deposited data

How the results depend on the processing

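Rgs1 and Cd69 passed and were higher in males as reported and under all 15 alternatives. All 15 use the libraries on which the genes were chosen, or part of them. They show how far the call hangs on a setting and add no support for it. In a first run, DESeq2 with its default filter target gave no adjusted p for 7873 genes, Rgs1 and Cd69 among them (log2 fold changes 2.21 and 0.93), and called 17 genes higher and 1 lower. The target was set to the threshold after this was seen, and the 15 include only that later setting. Library totals over the filtered genes, also tried first, gave the same counts of 36 higher and 13 lower as full totals. Over the 15, log2 fold changes of Rgs1 and Cd69 ran from 1.97 to 2.64 and from 0.82 to 1.07. Rgs2 and Rgs18 stayed above 0 (0.26 to 0.55 and 0.36 to 0.56) and Cxcr4 below 0 (-0.45 to -0.25) in all 15. Rgs18 passed without male replicate 1 (0.54) and under none of the other 14, so 2 to 3 of the genes passed over the leave-one-out fits. Near 0, signs turned. Rgs10 was -0.0691 by library size only, -0.00845 with no filter and -0.055 thinned, and ran from -0.0643 (without male replicate 2) to 0.0862 with single libraries left out, also below 0 without female replicate 1 (-0.0412). Gnai2 was -0.00178 by upper quartile, -0.0797 by library size only, -0.0144 with no filter and -0.00709 thinned, and ran from -0.0227 (without female replicate 2; -0.0183 without male replicate 2) to 0.0507. Gnai3 was -0.0411 by library size only and -0.125 thinned, and ran from -0.0231 (without male replicate 3) to 0.118. The cause was not tested. Over all genes, 36 were higher and 13 lower in males, against 81 and 35 with no filter, 23 lower by library size only, 7 lower by DESeq2 and 8 lower by limma-voom, and from 19 to 337 higher and 4 to 78 lower with single libraries left out. The share higher in males was 73.5%, and 55.8% by library size only. Of the listed genes, 0 to 2 were higher and 0 to 1 lower with single libraries left out. Cxcl12 and Gng2 were higher and Dock2 lower without male replicate 1, and with no filter 1 was higher (Cxcl12, 1.71) and 1 lower (S1pr3, -1.32). With the replicate block 56 genes were higher and 22 lower. Deviations of same-numbered libraries correlated at 0.0297 to 0.048 only, so the titles' numbers were not taken as pairs, though all 6 libraries correlated best with their own number. Depth left S1pr1 and all but 42 of the 92 listed genes in the table untested.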

Other observations

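The spread between libraries can be set beside counting error alone. Rgs1 had a coefficient of variation of 24.6% in males and 26.3% in females, where counting error gives 16.4% and 26.7%. For Cd69 the values were 7.73% in males and 13.7% in females, where counting gives 9.02% and 9.35%. Gnai2, with 3807 counts in males and 6614 in females, varied by 4.81% and 5.06%, above the 2.81% and 2.13% of counting. Rgs2 varied by 11.4% in males and 17.7% in females, where counting gives 6.14% and 5.36%.

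Angpt1, the gene of a growth factor known for keeping stem cells quiet in marrow, had 25.2, 29.4 and 20.1 CPM in the male libraries and 14.2, 14.6 and 12.8 CPM in the female ones. All male values lay above all female ones, and its log2 fold change of 0.81 ± 0.27 did not pass (edgeR quasi-likelihood, adjusted p = 0.225). Dock2, which activates Rac below chemokine receptors, had a log2 fold change of -0.43 ± 0.14 with all male libraries below all female ones, and did not pass with all 6 libraries (adjusted p = 0.225). Angpt1 and Dock2 were named after their values were seen.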
